A study of Mus musculus with 6 samples.

Results

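The enzymes that add marks to histones or take them off were examined in endothelial cells (EC) of the mouse lung. Genes were chosen by symbol alone, as all Kdm, Hdac, Setd, Smyd, Prdm, Prmt, Sirt and Kat genes with a number or letter after the family name, together with Ezh1, Ezh2, Ehmt1, Ehmt2 and the Suv39h and Suv420h genes. The rule found 80 of the 12623 genes of the deposited table. Where a gene had several transcript rows, the row with the highest mean was used. The libraries came from CD31+ CD34+ cells without PTPRC, LYVE1, LY76 and PDPN that had been sorted from lungs of infant C57BL/6N mice, 8 to 10 days of age, and of young adult C57BL/6N mice, 8 to 12 weeks of age. There were 3 libraries per age. The labels name no transgene or treatment, and the comparison asked which genes change while growing lung EC become quiescent, that is, stop dividing and sprouting.

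DNA in the nucleus is wound around histones, and the tails of histones carry acetyl and methyl groups. Acetyltransferases put acetyl groups on lysines and deacetylases remove them, and acetylated histones are typical of active genes. Methylation of lysine 4 of histone H3 is found at active promoters, whereas methylation of lysine 9 or lysine 27 of H3 and of lysine 20 of histone H4 is linked to silent or compacted chromatin. Most lysine methyltransferases share a catalytic SET domain, and the Kdm enzymes reverse their work. Several genes that carry these family names act mainly on proteins other than histones, and several Prdm genes are DNA-binding repressors that recruit such enzymes.

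The values were RPKM (reads per kilobase of transcript, scaled to the mapped reads of a library), which correct for transcript length and were rounded to 1 decimal by the authors, and the number of reads behind them is unknown. RPKM summed to between 362970 and 428155 per library over all transcript rows. All 8 EC markers on the list were measured, with a sum of 1969.5 to 2695.8 RPKM in infant and 2476.3 to 2776.5 in young adult libraries. Fibroblast markers (7 of 7 measured) summed to 234.4 to 1089.2 RPKM in infant and 7.0 to 16.8 in young adult libraries, mural markers (7 of 7) to 60.9 to 219.4 and 11.2 to 14.3, erythroid markers (6 of 8) to 9654.0 to 79858.6 and 822.2 to 1350.6, and markers of dividing cells (10 of 10) to 44.1 to 84.7 and 31.3 to 39.0. Leukocyte markers (6 of 7) summed to 301.7 to 492.1 and 137.3 to 532.3, epithelial markers (6 of 6) to 3818.1 to 4797.1 and 1480.1 to 4976.5, and lymphatic EC markers (3 of 4) to 88.7 to 191.4 and 268.3 to 411.1. The leukocyte sum was mostly Lyz2, at 275.3, 467.1 and 330.2 RPKM in infant EC against 134.3, 285.6 and 515.5 RPKM later. The other 5 leukocyte markers were lower in every young adult library than in every infant library, and 3 of them (Ptprc, Cd52 and Cd79a) were called lower by the rule given with the counts of genes. The epithelial sum was mostly Sftpc, at 3733.9, 4683.1 and 4583 RPKM in infant EC against 1450.9, 2826.7 and 4883.1 RPKM later. Sftpc and Sftpb overlapped between the ages, whereas Krt8, Krt18 and Cdh1 were called lower. Epcam, at 0.6 to 1.1 and 0 to 0.5 RPKM, was lower in every young adult library but was not called. The lymphatic sum was higher through Lyve1, at 68.6 to 171.4 and 252.9 to 396.4 RPKM, whereas Pdpn was at 0.8 to 1.7 and 0.3 to 0.7 RPKM and Flt4 at 15.1 to 19.3 and 13.2 to 15.1 RPKM. Infant replicate 2 stood apart, since it held the lowest fibroblast, mural, erythroid and dividing cell sums of the infant libraries. The Y-linked gene Ddx3y lay between 16.5 and 21.9 RPKM in the infant libraries and was listed at 0 in the young adult libraries, while the study's methods describe female mice, so sex and age cannot be told apart. In these bulk libraries, fewer cells of a type and less RNA per cell cannot be told apart either.

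All 80 genes reached an RPKM of 1 in at least 1 library and were tested, and 71 of them did so in all 6. Their mean levels ran from 0.717 to 65.6 RPKM with a median of 5.87. Only 7 were at 20 RPKM or more, 38 were between 5 and 20, 30 between 1 and 5 and 5 below 1. The summed level of the 80 genes was 705.6 ± 10.6 RPKM at the infant age against 724.7 ± 17.6 later (SD, 3 libraries per age), with library values of 696.2 to 717.0 and 707.6 to 742.8 that overlapped. The ratio was 1.03, so the differences lay between the genes and not in their total.

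Of the 80 genes, 13 fell and 8 rose from infant to young adult EC at an adjusted p under 0.05 (limma on log2(RPKM + 1), Benjamini-Hochberg adjustment over the 12458 genes tested). Among all genes, 16.2% fell and 9.26% rose by this rule. Where a log2 fold change beyond 0.807 was also demanded, 5 of the 80 genes were called lower and 0 called higher. The shares of all genes were 8.1% and 3.33%. The value is that of the study's fold threshold, but it was applied here to RPKM + 1, which shrinks fold changes of low genes. Genes that passed the adjusted p could thus stay uncalled at large ratios of means, such as Ezh2 (0.492) and Setd6 (2.05). With a pseudocount of 0.1, 9 of the 80 genes were called lower and 1 higher. In 22 genes every young adult library lay below every infant library and in 14 genes above, that is 27.5% and 17.5%, against 27.1% and 16.4% of all genes. At an unadjusted p under 0.05 there were 31 of the 80, against 5032 of all genes (40.4%). The shares were close to or below those of all genes, so the class as a whole did not stand out, and its median log2 fold change was -0.06 against -0.07 for all genes. In 51 of the 80 genes the log2 fold change was within 0.3 of 0 in either direction.

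Of these 21 genes, 6 kept an adjusted p under 0.05 whichever single library was left out, namely Ezh1, Ezh2, Prdm1, Prdm8, Kdm5b and Kdm5d, and all 21 kept their direction. Without infant replicate 1, 2 or 3, 7, 21 and 9 of the 21 remained, and without young adult replicate 1, 2 or 3, 10, 8 and 11. With infant replicate 2 left out, 16 of the 80 genes fell and 9 rose, and 8 were called lower and 1 higher. The split between falls and rises depended on the scaling. It was 7 to 15 after quantile normalization, which moved the median of all genes from -0.07 to 0.04, and 15 to 4 after rescaling without the globin genes, which moved it to -0.16.

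**Figure D1:**
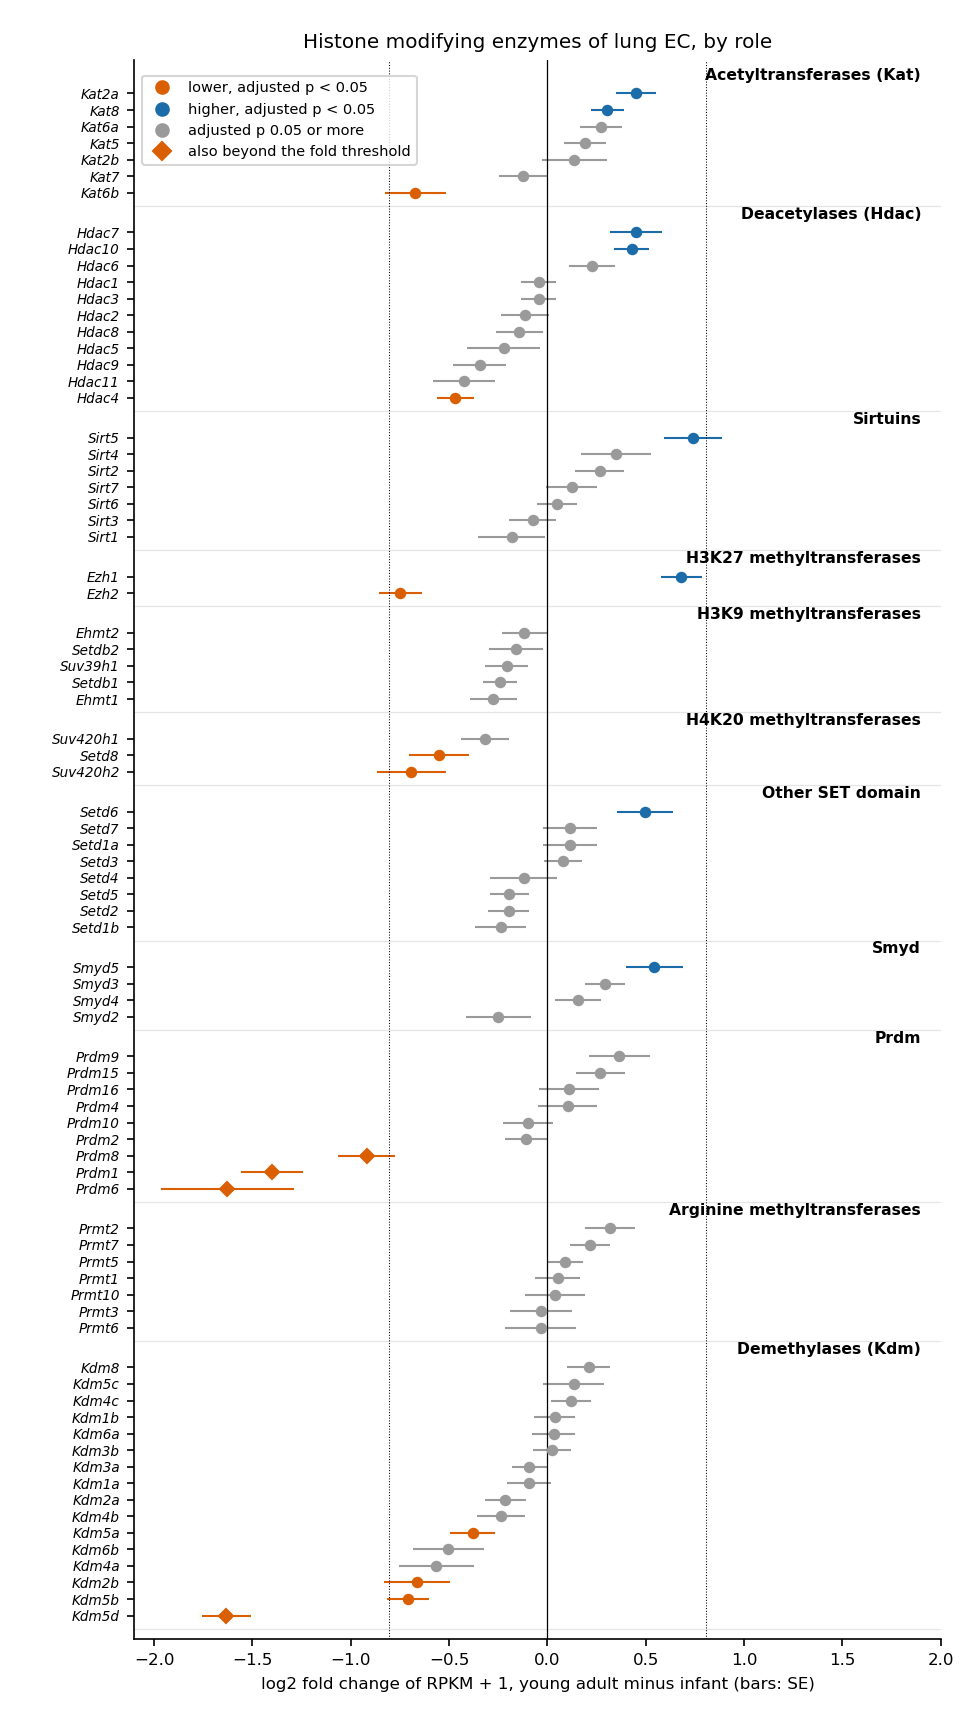
Log2 fold change of RPKM + 1, young adult minus infant EC, with its standard error (bars), for 79 of the 80 genes grouped by role. Orange points fell and blue points rose at an adjusted p under 0.05, diamonds mark the 4 of these genes that were also beyond the fold threshold (dotted lines), and grey points are the 59 genes that did not pass. The place of Kdm5d, listed at 0 in young adult libraries, depends on the pseudocount. The Prdm group holds 3 of the 4 diamonds, and Ezh1 and Ezh2 lie on opposite sides of 0.

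Ezh1 and Ezh2, the alternative catalytic subunits of Polycomb repressive complex 2 (PRC2), which methylates lysine 27 of H3, changed in opposite directions. Ezh2 is typical of dividing cells and Ezh1 of resting ones. Ezh2 (chromosome 6, 47530274 to 47595270, transcript NM_007971) measured 4.3, 3.5 and 4.0 RPKM in infant EC (replicates 1, 2 and 3, the order kept throughout) against 2.0, 2.0 and 1.8 RPKM in young adult EC. The groups did not overlap, and infant replicate 2 was the lowest infant library. The means were 3.93 ± 0.40 and 1.93 ± 0.12 RPKM (SD, n = 3 per age) (log2 fold change -0.75, SE 0.11, limma adjusted p 0.00456.) Ezh1 (chromosome 11, 101191115 to 101226463, transcript NM_007970) was at 20.4, 22.7 and 18.1 RPKM in infant EC against 33.8, 32.0 and 33.7 RPKM in young adult EC. Again the groups did not overlap, and all young adult libraries were higher. The means were 20.4 ± 2.30 and 33.2 ± 1.01 RPKM (log2 fold change 0.68, SE 0.11, limma adjusted p 0.00534.) As RPKM are per length, Ezh1 was the more abundant of the pair at both ages.

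Ezh2 made up 17.4%, 13.4% and 18.1% of the summed Ezh1 and Ezh2 RPKM at the infant age against 5.59%, 5.88% and 5.07% in young adult EC, means of 16.3% ± 2.56 and 5.51% ± 0.41 (SD, n = 3 each). The log2 ratio of Ezh2 to Ezh1 (each as RPKM + 1) moved from -2.11 ± 0.25 to -3.54 ± 0.09. The difference was -1.43 with no overlap between the ages. A ratio within a library does not depend on how the library is scaled, apart from the pseudocount. The exact two-sided permutation test gave p = 0.1, the smallest that 3 against 3 libraries allow, and 0.3 after adjustment over the 9 pairs compared. Of the 10 markers of dividing cells, 7 were called lower beside the fall of Ezh2. Mcm2, Mcm5 and Pcna did not pass (limma adjusted p 0.296, 0.247 and 0.944). Mki67 measured 4.6, 0.7 and 4.1 RPKM in infant EC and no more than 0.1 RPKM later. Their part in the result was not tested. In infant replicate 2, where Mki67 was lowest, Ezh2 was 0.843 of the mean of the other infant libraries, and without that library the log2 fold change of Ezh2 was -0.81 with a limma adjusted p of 0.00136.

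The promoters of this pair are shown for comparison with that of Suv420h2, another methyltransferase gene that fell, because E2F-type motifs are known from genes of the cell cycle. The sequences are from RefSeq on GRCm38.p6 and cover 250 bases before to 50 after the start site that the table uses, on the strand of the gene. For Ezh1 this site is the outer end of the gene span, whereas for Ezh2 (47595030) and Suv420h2 (4740127) it lies 240 and 35 bases inside it. They lie at chr6:47594981-47595280 (minus strand) for Ezh2, chr11:101226414-101226713 (minus strand) for Ezh1 and chr7:4739877-4740176 (plus strand) for Suv420h2, and capitals mark an E2F-type match.
Ezh2: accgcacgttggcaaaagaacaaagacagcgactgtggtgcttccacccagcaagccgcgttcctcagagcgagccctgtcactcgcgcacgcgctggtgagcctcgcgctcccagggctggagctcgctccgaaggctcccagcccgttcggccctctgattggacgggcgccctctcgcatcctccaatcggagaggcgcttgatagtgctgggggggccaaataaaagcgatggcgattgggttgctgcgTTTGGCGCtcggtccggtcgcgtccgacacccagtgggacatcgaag
Ezh1: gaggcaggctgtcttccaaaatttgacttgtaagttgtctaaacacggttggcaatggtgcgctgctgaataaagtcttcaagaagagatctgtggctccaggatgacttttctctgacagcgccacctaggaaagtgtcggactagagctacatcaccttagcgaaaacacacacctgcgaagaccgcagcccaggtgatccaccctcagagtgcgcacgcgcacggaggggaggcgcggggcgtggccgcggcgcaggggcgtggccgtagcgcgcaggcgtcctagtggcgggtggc
Suv420h2: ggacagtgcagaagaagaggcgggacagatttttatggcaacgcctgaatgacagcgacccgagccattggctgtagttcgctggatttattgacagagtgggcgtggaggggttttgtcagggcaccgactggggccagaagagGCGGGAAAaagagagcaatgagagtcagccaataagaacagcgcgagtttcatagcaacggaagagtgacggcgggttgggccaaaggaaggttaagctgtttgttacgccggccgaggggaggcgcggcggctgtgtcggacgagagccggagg
The match of Ezh2, TTTGGCGC, lay at bases 3 to 10 and that of Suv420h2, GCGGGAAA, at bases -105 to -98, counted from that start site as 0. The motifs searched on both strands were TTTCCCGC, TTTGGCGC and TTTCGCGC, and separately TTTGAA, a motif known from late cell cycle genes. None of the 4 contains another. Of the 80 genes, 66 matched the promoter table by symbol, and 4 of these (6.06%) held an E2F-type motif, namely Ezh2, Suv420h2, Prdm4 and Sirt4. The share was 3.93% over the 9026 tested genes that matched and 2.12% over all 27025 promoters. Of the 10 promoters of genes that fell, 2 held one, namely the Ezh2 and Suv420h2 promoters printed here. Of the 3 promoters of genes called lower, 0 held one, and of the 7 of genes that rose, 0 did. The printed sequences thus do not stand for the genes that fell. TTTGAA was found in 9 of the 66 (13.6%), in 14.2% of the tested genes and in 20.2% of all promoters. A match is a stretch of letters and was not measured as a binding site.

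Among the other 8 pairs of related enzymes, only Hdac7 and Hdac5 changed their ratio without overlap between the ages. The log2 ratio of Hdac7 to Hdac5 moved from 1.95 ± 0.29 to 2.62 ± 0.26, which is 0.67 apart (two-sided exact permutation p = 0.1, adjusted 0.3). The other 7 pairs overlapped. Their differences ran from -0.37 for Suv420h2 to Suv420h1 to 0.54 for Kdm6a to Kdm6b, with exact permutation p-values of 0.2 to 0.8. The differences of Hdac1 to Hdac2 and of Setdb1 to Setdb2 were 0.07 and -0.08, smaller than the young adult SD of 0.19 and 0.25. Suv39h2, the partner planned for Suv39h1, was not analysed here.

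**Figure D2:**
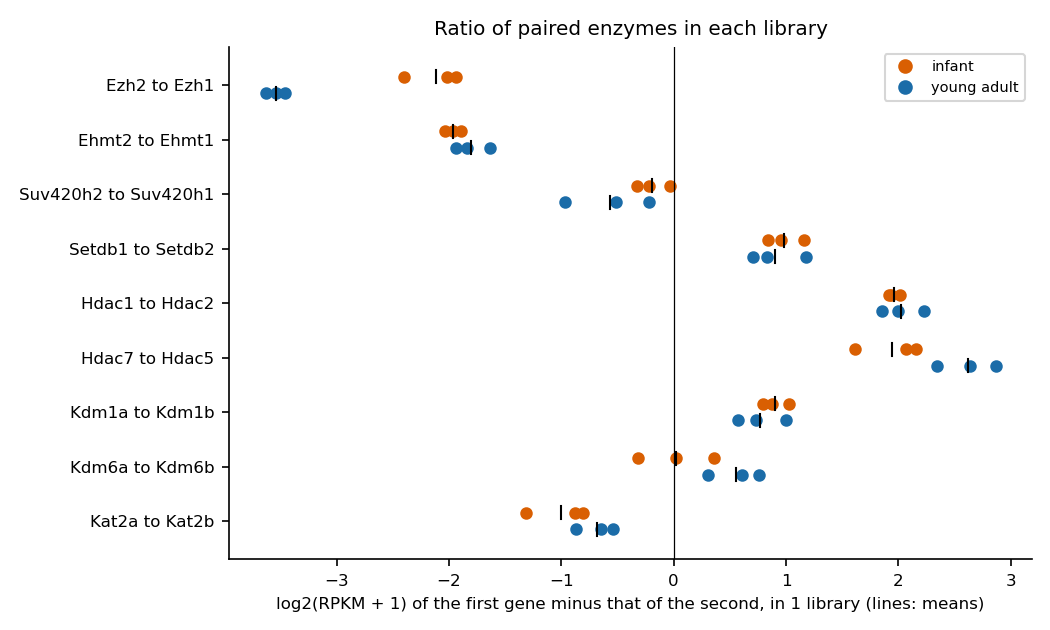
Difference of log2(RPKM + 1) between both genes of a pair within each library (points, infant orange, young adult blue; black lines are group means). The young adult points of Ezh2 to Ezh1 lie between -3.63 and -3.46, all below the infant points at -2.40 to -1.93, while most other pairs overlap.

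The Prdm genes held most of the large falls. They combine a SET-like domain with zinc fingers, and many act as repressors that settle cell identity. Of 10 measured, 4 were called lower (40%, against 8.1% of all genes), 0 higher (3.33% of all genes) and 6 did not pass the test. Apart from Prdm1, the called genes of the group had means below 5 RPKM. Of all genes below that level 21.6% fell, against 12% of those at 5 RPKM or more. Called lower were 657 of the 5474 tested genes below that level and 352 of the 6984 at 5 RPKM or more. The summed RPKM of the group fell from 43.5 ± 4.10 to 26.8 ± 1.89 (SD, n = 3 per age), a ratio of 0.616, with library values of 39.8 to 47.9 and 24.6 to 28.1. Prdm1 was the most abundant of the 10, and its share of the sum went from 44.6% ± 2.70 to 25.2% ± 4.25.

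Prdm1 (chromosome 10, 44437174 to 44528558, transcript NM_007548) encodes BLIMP1, a repressor best known from plasma cells and from early germ cells. It was at 21.1, 18.9 and 18.0 RPKM in infant EC against 7.1, 5.1 and 8.2 RPKM in young adult EC. The groups were far apart, and infant replicate 2 lay between the other infant libraries. The means were 19.3 ± 1.59 and 6.8 ± 1.57 RPKM (log2 fold change -1.40, SE 0.16, limma adjusted p 0.00184.) Without 1 library at a time it stayed between -1.53 and -1.23 and was called in 6 of 6 fits. The leukocyte markers other than Lyz2 summed to 26.4, 25.0 and 59.7 RPKM in infant EC against 3.0, 10.8 and 16.8 RPKM later. Their part in the fall of Prdm1 was not tested.

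Prdm8 (chromosome 5, 98167203 to 98187454, transcript NM_029947), known as a repressor in neurons, was at 2.5, 1.7 and 2.3 RPKM in infant EC against 0.8, 0.6 and 0.6 RPKM in young adult EC. The groups were apart, and infant replicate 2 was again the lowest of its group. Its log2 fold change was -0.92 (SE 0.15, limma adjusted p 0.00572), and Prdm8 was called in 6 of 6 fits without 1 library. After quantile normalization the fold change was -0.61, under the fold threshold, with an adjusted p of 0.02.

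Prdm6 differed from both by its spread among infant libraries. Prdm6 (chromosome 18, 53463955 to 53575904, transcript NM_001033281), a repressor known from smooth muscle, measured 3.4, 0.8 and 3.5 RPKM in infant EC against 0.1, 0.1 and 0.0 RPKM in young adult EC. Infant replicate 2 was far below the other infant libraries, at 0.232 of their mean, yet above all young adult libraries. The log2 fold change of Prdm6 was -1.63 ± 0.34 (SE, limma adjusted p 0.0145).

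Infant replicate 2 was also the lowest infant library for the mural and fibroblast marker sums. Mural markers summed to 214.2, 60.9 and 219.4 RPKM in infant EC against 11.2, 13.4 and 14.3 RPKM later, and fibroblast markers to 1089.2, 234.4 and 681.1 against 7.0, 16.8 and 15.9. The fibroblast sum was mostly collagens and Pdgfra, and Dcn (7.6, 19.9 and 8.0 RPKM) and Lum (4.1, 14.4 and 4.7 RPKM) were instead highest in infant replicate 2. No marker of either list was at 0 in an infant library, and of the young adult libraries only replicate 1 listed 1 of them, Cspg4, at 0. In all, 6 of 7 mural and 6 of 7 fibroblast markers were called lower. Their part in the result was not tested. Prdm6 was called without infant replicate 2 (log2 fold change -2.06, limma adjusted p 2.11e-05) and without young adult replicate 3 (-1.58, adjusted p 0.0482). It missed the threshold without infant replicate 1 (adjusted p 0.0574) or 3 (0.0514) and without young adult replicate 1 (0.055) or 2 (0.0594). In contrast, Prdm1 was at 0.967 of the mean of the other infant libraries in infant replicate 2.

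**Figure D3:**
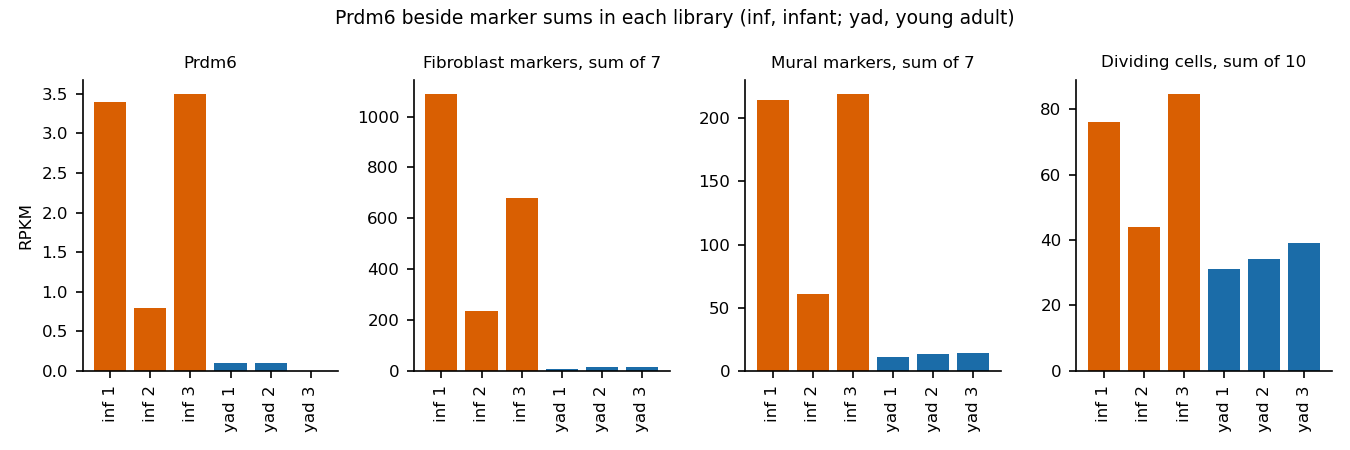
RPKM of Prdm6 and summed RPKM of fibroblast, mural and dividing cell markers in each library (bars, infant orange, young adult blue). Infant replicate 2 is the lowest infant bar in all 4 panels, with 0.8 RPKM of Prdm6 and 60.9 RPKM of mural markers.

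The 6 Prdm genes that were not called had log2 fold changes between -0.11 and 0.36 that did not pass the test. They included Prdm2, the most abundant of them at 8.0 to 9.7 RPKM in infant and 7.3 to 8.7 RPKM in young adult libraries, and Prdm16, at 1.2 to 1.6 and 1.2 to 2.0 RPKM, which is known from arterial EC and brown fat.

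Among the demethylases, 4 of 16 fell (25%) and 0 rose, against 16.2% and 9.26% of all genes. The group's summed RPKM fell from 118.3 ± 9.11 to 101.8 ± 1.70, a ratio of 0.86, with no overlap. Of the 4 genes, 3 belong to the Kdm5 family, which removes methyl groups from lysine 4 of H3. Of these 3, Kdm5d is Y-linked, and its age difference cannot be told apart from sex. The summed Kdm5 level was 37.3, 29.6 and 30.6 RPKM in infant EC against 23.3, 24.9 and 24.6 RPKM in young adult EC, a ratio of 0.747. The Kdm5 and demethylase sums both include Kdm5d, at 2.1 RPKM in each infant library and 0 in each young adult library. Kdm5c, also in both sums, did not fall.

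Kdm5b (chromosome 1, 134560178 to 134632878, transcript NM_152895) was at 9.5, 7.9 and 9.4 RPKM in infant EC against 5.2, 4.6 and 5.4 RPKM in young adult EC. All young adult libraries were lower than the lowest infant library. It fell by 0.71 on the log2(RPKM + 1) scale (SE 0.11, limma adjusted p 0.00521), below the fold threshold on that scale. Its ratio of means was 0.567. Kdm5a, at 11.2 to 14.3 and 8.6 to 9.8 RPKM, fell by 0.38 (limma adjusted p 0.0462), and Kdm2b, a DNA-binding member that brings Polycomb complexes to CpG islands, at 2.7 to 4.8 and 1.9 to 2.1 RPKM, fell by 0.66 (adjusted p 0.0268). Both passed in only 1 of the 6 fits without 1 library, the fit without infant replicate 2, and reached adjusted p-values of 0.13 and 0.0886 in the others.

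Kdm5d (chromosome Y, 897566 to 943813, transcript NM_011419) was the Y-linked member. It was at 2.1 RPKM in each infant library and listed at 0 in each young adult library. It was called lower (limma adjusted p 0.000642), as were Ddx3y, Eif2s3y and Uty, the other Y-linked genes examined, and age cannot be told apart from the sex of the mice for this gene. A fold is not given because no reads are known behind the zeros. Kdm5c, its homologue on the X chromosome (152233198 to 152279102), was at 11.4, 8.4 and 7.5 RPKM in infant EC against 8.8, 10.5 and 10.6 RPKM in young adult EC, which overlapped (log2 fold change 0.13 ± 0.15 SE, limma adjusted p 0.553). Xist was at 7.6 to 8.7 RPKM in infant and 12.5 to 15.6 RPKM in young adult libraries. None of the 5 members on the X chromosome passed the test (limma, adjusted p under 0.05), and none did at an unadjusted p under 0.05. Without Kdm5d, 4 of 79 genes were called lower and 12 fell at an adjusted p under 0.05.

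Other demethylases differed less. Kdm6b, which removes methyl groups from lysine 27 of H3, was at 11.4, 7.6 and 11.3 RPKM in infant EC against 8.3, 5.6 and 6.5 RPKM in young adult EC, with overlap between the ages (log2 fold change -0.50, limma adjusted p 0.0795). Its relative Kdm6a was at 11.6, 10.0 and 8.9 RPKM and 10.5, 10.2 and 10.4 RPKM (log2 fold change 0.03). Kdm4c, the most abundant demethylase of the group and an eraser of lysine 9 methylation, was at 11.3, 13.9 and 12.5 RPKM and 13.0, 14.4 and 13.7 RPKM, which overlapped (limma adjusted p 0.422). Kdm1a, a flavin-dependent demethylase, was at 8.0, 8.8 and 8.9 RPKM and 7.5, 7.3 and 9.2 RPKM (log2 fold change -0.09). Its paralog Kdm1b was at 4.2, 3.8 and 4.4 RPKM and 4.7, 4.0 and 4.1 RPKM (log2 fold change 0.04).

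All 3 methyltransferases of lysine 20 of H4 were lower in every young adult library than in every infant library, and 2 passed the test. Over all genes, 27.1% were lower without overlap and 16.2% fell. Their summed RPKM went from 22.3, 16.7 and 17.6 in infant EC to 12.8, 11.2 and 13.5 in young adult EC, a ratio of 0.663. Suv420h2 (now Kmt5c, chromosome 7, 4740092 to 4747514), which makes the trimethyl mark, was at 8.9, 6.1 and 6.4 RPKM in infant EC against 3.3, 3.7 and 5.1 RPKM in young adult EC. It fell by 0.69 (SE 0.18, limma adjusted p 0.0269). Setd8 (now Kmt5a), which sets the first methyl group on this lysine and is known from mitosis, was at 4.3, 2.7 and 3.6 RPKM and 2.1, 1.8 and 2.3 RPKM and fell by 0.55 (limma adjusted p 0.0358). Suv420h1 (now Kmt5b) was at 9.1, 7.9 and 7.6 RPKM and 7.4, 5.7 and 6.1 RPKM, with a log2 fold change of -0.32 (adjusted p 0.0894). Adjusted p-values of Suv420h2 and Setd8 stayed under 0.05 in 2 and 1 of the 6 fits without 1 library and reached 0.098 and 0.121.

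The 5 methyltransferases of lysine 9 of H3 all had log2 fold changes below 0, from -0.27 to -0.12, and 0 passed the test (limma, adjusted p under 0.05, with 1 at an unadjusted p under 0.05). Ehmt1, the most abundant, was at 21.9, 16.9 and 17.2 RPKM in infant EC against 15.5, 15.8 and 14.2 RPKM in young adult EC without overlap (adjusted p 0.126). Ehmt2, with which it forms a dimer, was at 4.6, 3.6 and 3.9 RPKM and 3.3, 3.7 and 3.9 RPKM, which overlapped. Setdb1 was at 9.7, 9.9 and 9.5 RPKM and 8.5, 7.8 and 7.9 RPKM without overlap (adjusted p 0.0777), whereas Setdb2 was at 3.8, 5.1 and 4.4 RPKM and 3.2, 4.4 and 4.0 RPKM. Suv39h1, known from heterochromatin, was at 5.1 to 6.6 and 4.7 to 5.0 RPKM. The summed RPKM of the 5 genes was 42.6 ± 3.44 and 35.6 ± 0.72, a ratio of 0.835.

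**Figure D4:**
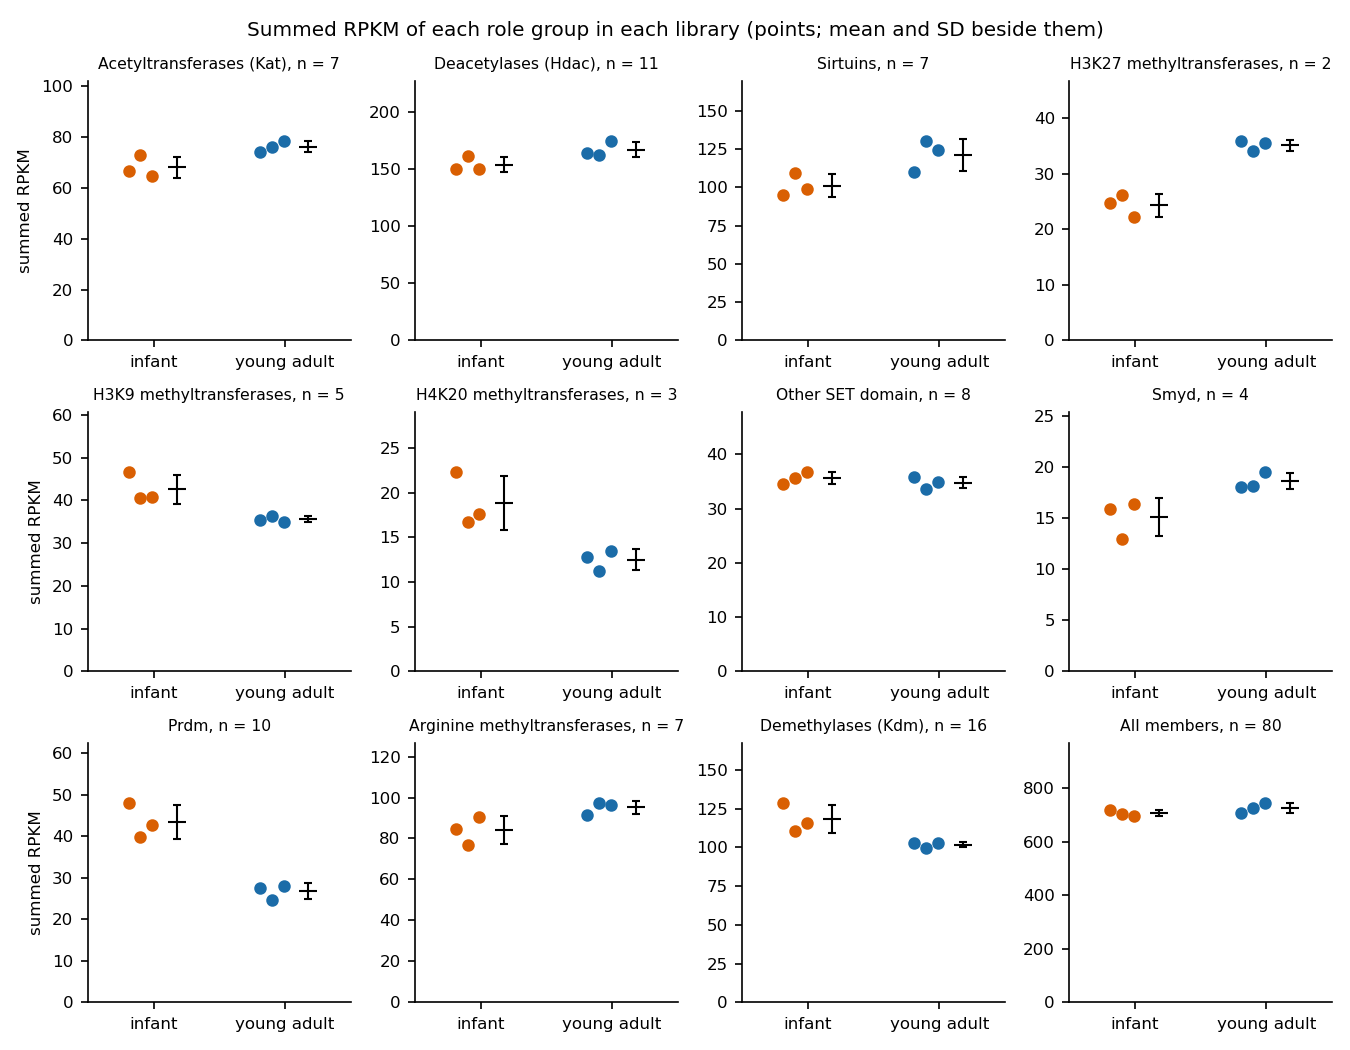
Summed RPKM of each role group in each library (points, infant orange, young adult blue, with mean and SD). The Prdm, H4K20, H3K9 and demethylase sums are lower in every young adult library than in every infant library. The H3K27 sum, which is mostly Ezh1, is higher in every young adult library. So are the acetyltransferase, Hdac, sirtuin, Smyd and arginine methyltransferase sums, most of them by little. The highest infant and lowest young adult sums were 161.7 and 162.3 RPKM for Hdac and 109.4 and 109.8 for sirtuins. They were 90.7 and 91.7 for arginine methyltransferases, 72.9 and 74.1 for acetyltransferases and 16.4 and 18.1 for Smyd. The RPKM were not rescaled for these sums. The sums of the other SET domain genes and of all 80 genes overlap between the ages.

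The deacetylases moved in both directions. Of 11 Hdac genes, 1 fell, 2 rose and 8 did not pass the test. That is 9.09% that fell and 18.2% that rose, against 16.2% and 9.26% of all genes. The class IIa members shuttle between nucleus and cytoplasm, and Hdac7 among them is known to keep vessels intact. Hdac7 (chromosome 15, 97792661 to 97844502) was at 37.0, 50.1 and 38.3 RPKM in infant EC against 57.3, 54.5 and 59.1 RPKM in young adult EC, so that infant replicate 2 came closest to the young adult libraries. It was the most abundant Hdac gene and rose by 0.45 (SE 0.13, limma adjusted p 0.0416), but passed only without infant replicate 2 among the 6 fits without 1 library, with an adjusted p of up to 0.129. Hdac4 (chromosome 1, 91928779 to 92195702), of the same class, was at 5.7, 5.3 and 5.1 RPKM and 3.7, 3.7 and 3.4 RPKM and fell by 0.47 (SE 0.09, limma adjusted p 0.0135). Hdac5 was at 11.4, 11.2 and 7.8 RPKM and 7.0, 7.9 and 10.8 RPKM, and Hdac9 at 6.8 to 9.5 and 5.4 to 6.4 RPKM. Hdac7 thus held 64.0% ± 3.28 of the class IIa sum in infant and 75.9% ± 1.88 in young adult EC, with library values of 60.3% to 66.0% and 74.5% to 78.1%.

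Hdac10 (chromosome 15, 89123303 to 89128700), known as a polyamine deacetylase, was at 16.0, 16.4 and 15.6 RPKM in infant EC against 20.6, 21.9 and 23.2 RPKM in young adult EC and rose by 0.43 (SE 0.09, limma adjusted p 0.014). The row used is a non-coding transcript of the gene, and its coding row differed by little (log2 fold change 0.43). The class I enzymes, which sit in the main nuclear corepressor complexes, were nearly level. Hdac1 was at 33.8, 33.4 and 36.3 RPKM and 33.0, 32.3 and 34.9 RPKM, which overlapped. Hdac2 was at 8.2, 8.0 and 8.2 RPKM and 8.4, 6.1 and 8.0 RPKM, and the class I sum had a ratio of 0.954 between the ages. Hdac1 made up 50.8% ± 0.47 of that sum in infant and 51.5% ± 0.70 in young adult EC.

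**Figure D5:**
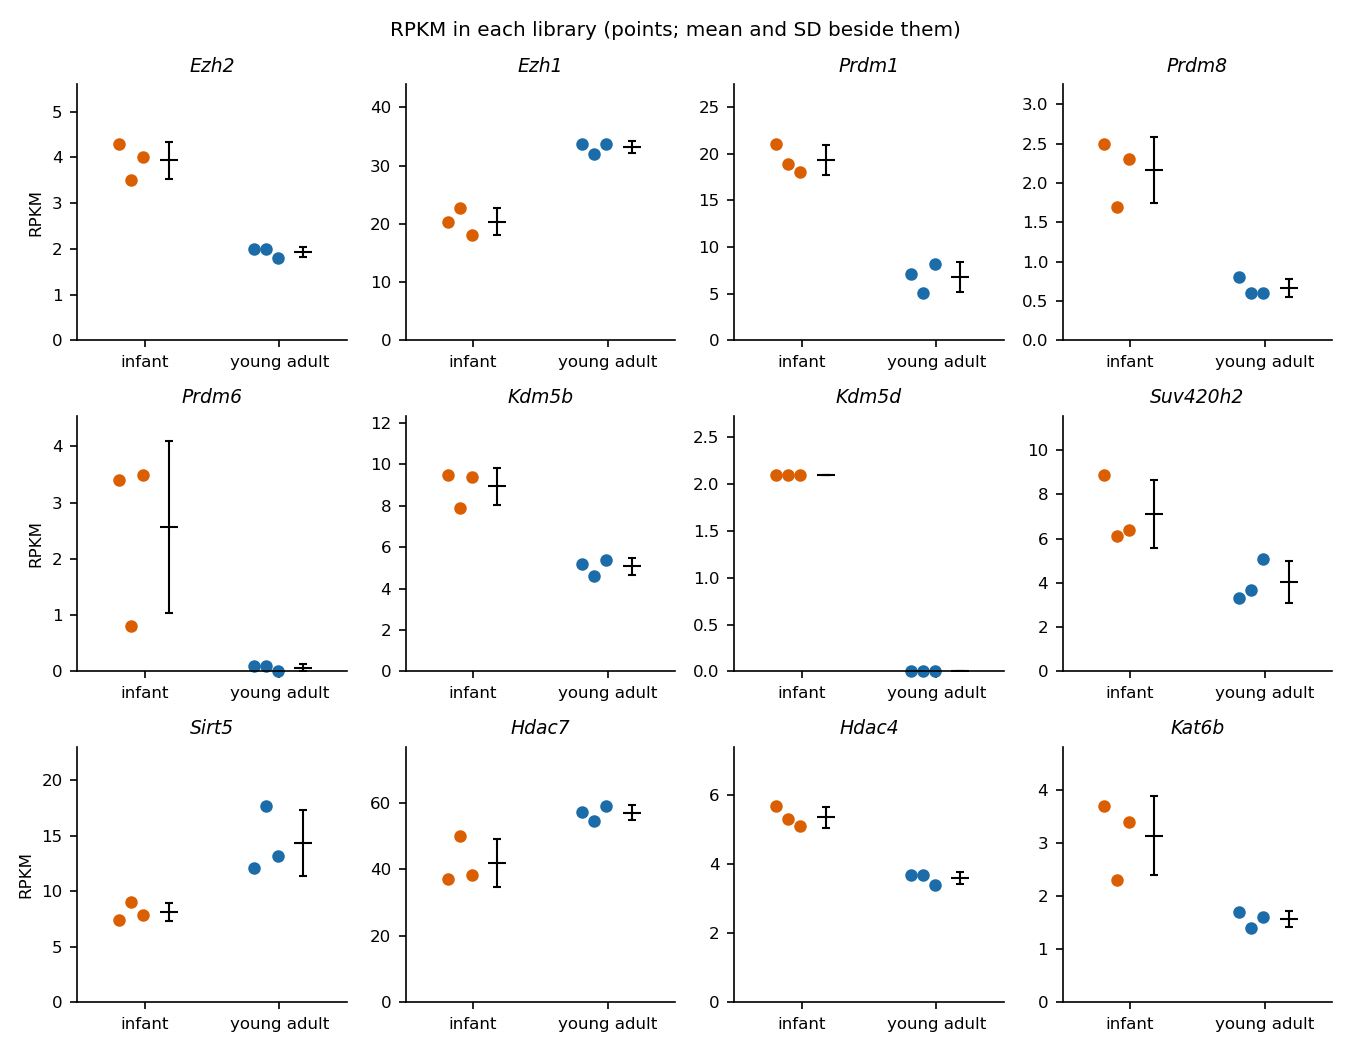
RPKM of 12 genes in each library (points, infant orange, young adult blue, with mean and SD, each axis starting at 0). Ezh1, Sirt5 and Hdac7 are higher in every young adult library and the other 9 genes lower, with infant replicate 2 far below the other infant libraries in Prdm6.

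Sirtuins are deacylases that use NAD, and several work in mitochondria. Of 7 measured, 1 rose (14.3%, against 9.26% of all genes) and 6 did not pass. Sirt5 (chromosome 13, 43365389 to 43395203), a mitochondrial enzyme that removes succinyl and related groups, was at 7.4, 9.0 and 7.9 RPKM in infant EC against 12.1, 17.7 and 13.2 RPKM in young adult EC. All young adult libraries were higher, and young adult replicate 2 was the highest. Sirt5 rose by 0.74 (SE 0.15, limma adjusted p 0.0127), the largest rise of the 80 genes on the log2(RPKM + 1) scale, and its adjusted p was 0.0506 at most in the fits without 1 library. Sirt2, mainly a cytosolic enzyme, was the most abundant of the 80 genes at 53.5, 66.7 and 58.4 RPKM and 63.9, 76.4 and 74.7 RPKM, which overlapped (limma adjusted p 0.15). Its share of the sirtuin sum was 58.8% ± 2.35 and 59.0% ± 0.98. Sirt1, a nuclear sirtuin studied for vessel growth, was at 3.5 to 3.7 and 2.4 to 4.3 RPKM.

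Of the 7 acetyltransferases, 1 fell and 2 rose (14.3% and 28.6%, against 16.2% and 9.26% of all genes). Kat6b was at 3.7, 2.3 and 3.4 RPKM in infant EC against 1.7, 1.4 and 1.6 RPKM in young adult EC and fell by 0.67 (SE 0.15, limma adjusted p 0.0198). Its relative Kat6a was at 7.5 to 9.4 and 10.1 to 11.3 RPKM with the groups apart in the other direction (log2 fold change 0.27, limma adjusted p 0.1). Kat2a, the catalytic subunit of the SAGA complex, was at 4.7, 5.2 and 5.0 RPKM and 6.5, 7.2 and 7.8 RPKM and rose by 0.45 (SE 0.10, limma adjusted p 0.0179), while its paralog Kat2b was at 9.0, 14.4 and 10.0 RPKM and 12.7, 10.9 and 12.8 RPKM. Kat8, which acetylates lysine 16 of H4, was at 8.4, 8.6 and 8.5 RPKM and 11, 10.2 and 11 RPKM and rose by 0.30 (limma adjusted p 0.0364). Kat5, the most abundant at 19.9, 23.8 and 21.4 RPKM and 22.4, 26.0 and 26.3 RPKM, did not pass (adjusted p 0.227).

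Few genes passed the test in the remaining SET and arginine methyltransferase groups. The mean summed RPKM of the Smyd genes went from 15.1 in infant to 18.6 in young adult EC, a ratio of 1.23. That of the arginine methyltransferases went from 84.1 to 95.1, a ratio of 1.13. Neither sum overlapped between the ages, but the arginine methyltransferase sums lay close, at up to 90.7 RPKM in infant and from 91.7 RPKM in young adult EC. The sum of the other SET domain genes overlapped (ratio 0.977). Of 8 other SET domain genes 1 rose (12.5%) and of 4 Smyd genes 1 rose (25%), against 9.26% of all genes. Of 7 arginine methyltransferases 0 passed the test (limma, with 1 at an unadjusted p under 0.05). Smyd5 was at 5.0, 3.3 and 5.1 RPKM in infant EC against 6.8, 6.8 and 7.0 RPKM in young adult EC and rose by 0.54 (SE 0.15, limma adjusted p 0.0324), with infant replicate 2 the lowest library. Setd6, at 0.5 to 0.8 and 1.1 to 1.5 RPKM, rose by 0.49 (SE 0.14, limma adjusted p 0.0403), at levels where the rounding step of 0.1 RPKM is large. Its ratio of means, 2.05, was above the 1.77 of Sirt5. Setd3, which methylates actin and was the most abundant of its group, was at 13.1, 14.9 and 15.0 RPKM and 14.5, 14.9 and 16.1 RPKM. Prmt2 was at 31.6, 25.1 and 34.3 RPKM and 37.5, 39.2 and 36.7 RPKM without overlap (log2 fold change 0.32, limma adjusted p 0.0998), and Prmt1, the main producer of dimethylarginine, at 22.8 to 27.5 and 22.8 to 27.3 RPKM. In the arginine methyltransferases the log2 fold changes ran from -0.03 to 0.32.

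Level and direction were compared last. Of the 45 genes with a mean of at least 5 RPKM, 4 fell, 7 rose and 1 was called, while of the 35 below that level 9 fell, 1 rose and 4 were called. These are 8.89% and 15.6% of the 45 genes and 25.7% and 2.86% of the 35. Of all 6984 tested genes at 5 RPKM or more, 838 fell and 897 rose (12% and 12.8%), and of the 5474 below that level, 1184 fell and 257 rose (21.6% and 4.69%). The split with level was thus in the same direction over all genes.

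Genes of the same machinery that the symbol rule did not take were read from a separate list. Of 80 symbols listed, 67 were measured and tested. The list held older and newer symbols of some genes, so the symbols not found do not count undetected genes. Of the 67, 14 fell and 1 rose (limma, adjusted p under 0.05), with 3 called lower and 1 called higher. The median log2 fold change was -0.14. That is 20.9% that fell and 1.49% that rose, against 16.2% and 9.26% of all genes, and 1 of the 3 genes called lower is the Y-linked Uty. Among 8 partners of Ezh1 and Ezh2 in PRC2, 3 fell and 0 rose. Jarid2, a PRC2 cofactor, was at 13.1, 12.8 and 11.4 RPKM in infant EC against 5.2, 5.9 and 6.2 RPKM in young adult EC and fell by 0.99 (SE 0.10, limma adjusted p 0.00146). The core subunits Eed and Suz12 were at 10.5 to 12.9 and 13.9 to 15.3 RPKM and at 5.6 to 6.1 and 4.6 to 5.9 RPKM, and neither passed (limma adjusted p 0.0785 and 0.433). Of 11 genes of Polycomb complex 1, which binds the mark that PRC2 sets, 3 fell and 1 rose. The gene that rose was Cbx7, a reader subunit, at 1.3, 2.2 and 1.1 RPKM in infant EC against 4.9, 5.6 and 5.8 RPKM in young adult EC (a log2 fold change of 1.37, SE 0.17, limma adjusted p 0.00253). Mecom, a relative of Prdm16, was at 6.3, 4.9 and 5.8 RPKM and 2.3, 3.0 and 2.0 RPKM, means of 5.67 ± 0.71 and 2.43 ± 0.51 (log2 fold change -0.96, limma adjusted p 0.00456). Uty, the Y-linked relative of Kdm6a, was at 6.4, 4.3 and 5.9 RPKM in infant libraries and listed at 0 in young adult libraries. Jarid2, Cbx7, Mecom and Uty were called in 6 of 6 fits without 1 library. Of 10 measured genes of the H3 lysine 4 methyltransferase complexes and of 8 further acetyltransferases, 0 passed the test (limma, with 0 and 1 at an unadjusted p under 0.05).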

How the data were processed

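RNA-seq of sorted lung EC gave 6 libraries, and their titles gave the age group and replicate number. Nothing in the labels says which mice a library came from, so p-values measure the spread between these libraries. The authors amplified RNA with the poly(A)-primed SMARTer Ultra Low kit, read it in pairs on a HiSeq2000, aligned it to mm10 with STAR, annotated it with RefSeq and applied DESeq2. The deposited values were the authors' RPKM, with 1 digit after the point. Which STAR version and which RPKM program were used was not given in the sources used here. The 17241 transcript rows held 12623 genes. Symbols that had become dates (24 rows, 11 genes) were restored from the transcript identifier. Read counts were not analysed here and could not be recovered, so depth and counting error are unknown, and values under 1 RPKM carry a rounding step of 0.1.

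Because the study's count test needs counts, log2(RPKM + 1) was fitted with limma 3.58.1 in R 4.3.3 (lmFit, eBayes with an intensity trend, age as the only term), with Benjamini-Hochberg adjustment over the 12458 genes that reached an RPKM of 1 anywhere. "Fell" and "rose" mean an adjusted p under 0.05, and "called" also a log2 fold change beyond 0.807 on this scale. The value is that of the study's fold threshold, but the calls here are not the study's calls. The log2(RPKM + 1) scale understates changes of low genes. Ratios of RPKM are ratios of means. Pairs were compared by exact two-sided permutation tests over the libraries. The fit was tested on simulated data. Of the 80 genes, 28 had several transcript rows, whose log2 fold changes had the same sign in all 28 and lay within 0.1 of each other in 27. Positions are whole genes in RefSeq on GRCm38.p6, matched by transcript for 78 genes and by symbol for 2. Named with all library values are the called genes except 1, which is counted but not reported here, both genes of each pair, the most abundant gene of each role, Kdm5d and Kdm5c, and called genes of the further list. The 16 genes that passed the adjusted p but not the fold threshold, and the other genes given by their range, were named after their values were seen. The 80 genes, their roles, the pairs and all lists were chosen with earlier results of these data known. Alternatives were other pseudocounts (0.1 and 5), no filter or a filter on the mean, 4 scalings, 3 variance models, a replicate block, other thresholds, other treatment of transcript rows and leaving out each library.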

Additional observations from a re-analysis of the deposited data

How the results depend on the processing

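Limits are 3 libraries per age, 1 of which stands apart, an unknown depth and Y-linked genes that differ with age. The count of genes called lower, 5, was 9 with a pseudocount of 0.1, 1 with a pseudocount of 5, 3 after quantile normalization, 13 with no fold threshold, 1 in a test against the fold threshold itself (limma treat) and 3 to 8 without 1 library. The count of genes called higher, 0, was 1 with a pseudocount of 0.1, with equal library sums, after quantile normalization and with array weights, 8 with no fold threshold, and 0 to 1 without 1 library. At unadjusted p under 0.05, 31 of the 80 genes passed in either direction, against 40.4% of all genes. Over all genes, the 1424 calls became 578 with a pseudocount of 5, 3176 with no fold threshold, 176 with treat and 843 to 1874 without 1 library. The median log2 fold change of the 80 genes, -0.06, moved by less than the spread between replicates under every alternative run, from -0.16 to 0.05. Genes of the pairs and of the most abundant set that did not pass changed sign near 0: Ehmt2 to 0.067 and Setdb2 to 0.016 with quantile normalization, Hdac1 to 0.042 with equal library sums, Kdm1b to -0.0499, Kdm6a to -0.065 and Setd3 to -0.022 without globin genes, and Kdm1b to -0.00484 with array weights. With each library left out once, Hdac2 ran from -0.19 to 0.0102, Kdm1b from -0.022 to 0.074 and Kdm6a from -0.051 to 0.12. Libraries with the same number did not deviate together (correlations of 0.028, -0.11 and -0.021), so the values gave no sign of pairs. With 3 libraries per age, this cannot exclude that libraries of the same number were handled together. A replicate block gave 4 genes called lower, 0 higher and 1371 of all genes, and 14 of the 21 genes passed. The cause of these changes was not tested.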
